A study of Homo sapiens with 12 samples.

Results

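Genes of the EYA-SIX network were followed in alveolar rhabdomyosarcoma cells with and without a knockdown of the PAX3-FKHR fusion. They were taken as all gene probes annotated by the array files with the symbol EYA1, EYA2, EYA3, EYA4, SIX2, SIX4 or SIX5, which gave 7 genes, measured by 11 probes, of 30238 gene names on the array. Their mRNA was measured in parental Rh30 cells without transfection (WT), in an Rh30 control clone (CON) and in an Rh30 clone with the fusion stably knocked down (KD1). Each of 12 Agilent two-color arrays carried RNA of 2 of these cultures, one labeled with Cy3 and the other with Cy5. The 3 comparisons KD1 vs CON, KD1 vs WT and WT vs CON each had 2 biological replicates, and each replicate was hybridized as a dye-swap pair.

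All 3 cultures derive from Rh30, an alveolar rhabdomyosarcoma line that carries PAX3-FKHR. CON and KD1 were each a single stable clone made with a retroviral short hairpin vector, with a non-targeting sequence in CON and a sequence against the fusion in KD1. The clones received 1 μg/mL puromycin and WT received none, so that clone, puromycin and hairpin cannot be told apart in the comparisons with WT. In KD1 vs CON, the clone and the hairpin sequence cannot be told apart either. RNA was extracted 24 h after plating and 500 ng was labeled. There were 6 RNA extracts, 2 for each culture, and every extract was on 4 arrays. The comparisons therefore share extracts. The p-values measure only the spread between these 2 extracts per culture, pooled over the 3 comparisons and moderated by that of all probes tested. The arrays measured bulk RNA, in which fewer cells of a type and less RNA per cell cannot be told apart.

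SIX2, SIX4 and SIX5 are homeodomain transcription factors that bind DNA. EYA proteins do not bind DNA themselves but are recruited by such factors as coactivators, and their conserved C-terminal domain is also a tyrosine phosphatase. In muscle progenitors of the embryo, the EYA-SIX factors act beside PAX3 and upstream of the myogenic regulatory factors, and DACH proteins are further partners of this network.

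Between 71.1% and 73.6% of spots were well above background in Cy3 and between 64.4% and 67.8% in Cy5, and no spot was saturated. Precision is limited by the small number of RNA extracts per culture. The rhabdomyosarcoma markers DES, MYOD1, MYOG, CHRNA1, CHRNG, FGFR4 and PAX3 were well above background on all arrays in each extract (7 of 7). Of 4 markers of fusion-positive tumors, NOS1 and PIPOX were well above background in 24 of 24 channels, CDH3 in 22 and TFAP2B in 0. WT extract 2 stood apart by the epithelial markers EPCAM and CDH1. EPCAM, an epithelial adhesion molecule, had a mean signal of 166 in WT extract 2 and between 3.35 and 4 in the other 5 extracts, and its spots were well above background on 4 of 4 arrays in the former and on 0 in the latter. CDH1, the epithelial cadherin, exceeded this limit on 2 of 4 arrays in WT extract 2 and on 0 in the other extracts, whereas KRT8 and KRT18 were well above background in all 6. KRT18 was higher in both WT extracts, with 1464 and 1632, than in CON (695 and 827) and KD1 (635 and 720). KRT8 had 853 to 1173 over all extracts. The summed signal of the 4 epithelial markers was 2448 and 2923 in the WT extracts, 1627 and 1688 in CON and 1525 and 1903 in KD1. Replicate 2 of both comparisons with WT was measured with WT extract 2, so that their means, intervals and p-values include it. Their replicate 1 values are those without it. As the limma fit pools the spread of all 3 comparisons, the intervals and p-values of KD1 vs CON also depend on this extract. The KD1 vs CON ratios do not. The part of these markers in the results was not tested.

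Both fusion partners have probes on the array. Whether a probe reads the fusion, the unrearranged gene or both was not determined here, so that these values do not check the knockdown. In KD1 vs CON, the brightest PAX3 probe had log2 ratios of −0.39 and −0.46 and the brightest FOXO1 (FKHR) probe had −0.26 and −0.58. Of the dimmer PAX3 probes, A_24_P362595 had −0.25 and −0.32, and A_23_P209499 went in opposite directions, with 0.16 and −0.33. The dimmer FOXO1 probe had −0.25 and −0.52. No mean of any of these probes passed the adjusted threshold of limma in any comparison.

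Because the result for EYA2 rests on 2 different probes, and EYA3 is also measured by 2, the first 30 bases of these 60-base probes are given 5′ to 3′ as the array files list them, in lower case, with no base marked.
EYA2 A_23_P500421: tttgtttttaaagacctacttgacgtcatg
EYA2 A_23_P319859: gggatgggtttgtcttgtcttctttttaat
EYA3 A_24_P466374: cttctatttcttaccactaaattggtttcc
EYA3 A_23_P74737: actggatcctatgcccagaaatatggaaag
Both EYA2 probes were designed on transcript NM_005244 and lie on the plus strand of chromosome 20 of build NCBI36. A_23_P500421, the brighter one, lies at chr20:45250751-45250810 and A_23_P319859 at chr20:45250503-45250562, so that 188 bases separate them and they share no base. Their GC contents were 43.3% and 36.7%. On the minus strand of chromosome 1, the EYA3 probe A_24_P466374 lies at chr1:28169821-28169880, whereas the 60 bases of A_23_P74737 are spread over 4346 bases from 28199118 to 28203463, which places them in more than 1 exon. The exon or UTR of the other probes was not determined, as no annotation of this build was used here.

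EYA2 had the lowest signal in KD1, but it was not uniformly high in the control cultures. It was low in the KD1 extracts and in CON extract 1, and high in both WT extracts and in CON extract 2. With A_23_P500421, the processed signal, which is the intensity after the authors' background and dye corrections, was 142 to 182 on the 4 arrays with WT extract 1 and 75.2 to 151 on those with WT extract 2. In CON it was 10.6 to 20.4 in extract 1 and 156 to 190 in extract 2. In KD1 it was 2.65 to 5.7 in extract 1 and 11 to 20.2 in extract 2. The arrays of CON extract 1 thus overlapped those of KD1 extract 2, while the arrays of CON extract 2 were all brighter than any KD1 array.

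The second EYA2 probe showed the same order of extracts. With A_23_P319859, the signal was 56.5 to 70.9 and 30.3 to 57.9 in WT, 12.2 to 21.9 and 53.4 to 72.1 in CON, and 7.55 to 11.6 and 11.8 to 23.6 in KD1, with extract 1 first in each case. The culture means of A_23_P500421 on the log2 scale were 6.96 ± 0.52 (SD, n = 2) in WT, 5.59 ± 2.59 in CON and 2.92 ± 1.40 in KD1, so that WT and CON differed by less than the SD of CON, and CON and KD1 by about that SD.

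**Figure D1:**
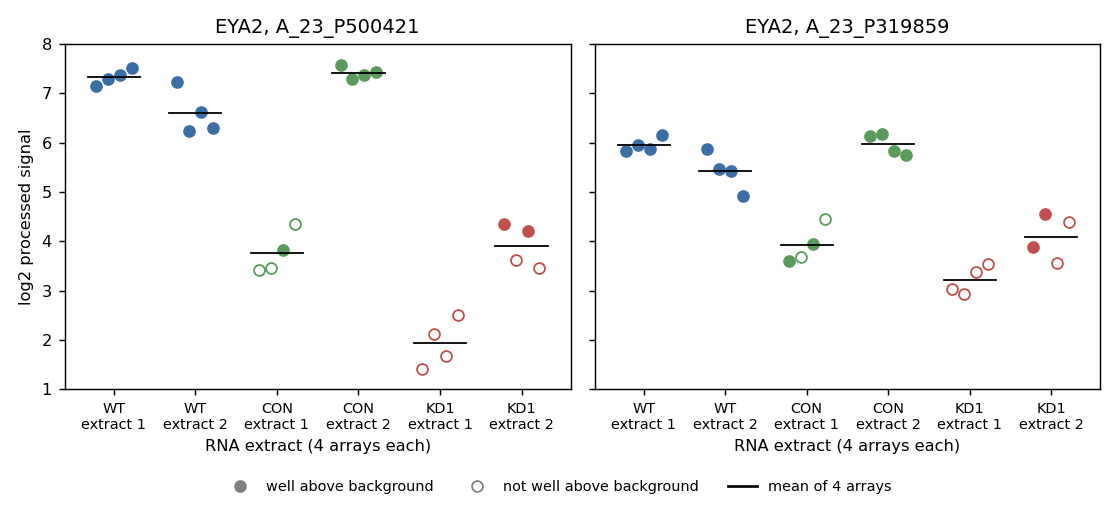
Processed EYA2 signal on a log2 axis for each of 6 RNA extracts, with one point per array, for the brighter probe (left) and the dimmer probe (right). Filled points are well above background, open points are not, and lines are means of 4 arrays. CON extract 1 lies near the KD1 extracts and CON extract 2 near the WT extracts with both probes.

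Low EYA2 signals were close to the detection limit. A_23_P500421 stood well above background on 8 of 8 WT arrays, on 1 of 4 in CON extract 1, on 4 of 4 in CON extract 2, on 0 of 4 in KD1 extract 1 and on 2 of 4 in KD1 extract 2. For A_23_P319859 these numbers were 8 of 8, 2 of 4, 4 of 4, 0 of 4 and 2 of 4. Ratios of KD1 extract 1 to WT therefore have only a bound, and that of A_23_P500421 to CON extract 1 has none. Taking the higher of the measured signal and the background limit, EYA2 was at least 9.37-fold lower in KD1 than in WT in replicate 1 with A_23_P500421. With A_23_P319859 it was at least 3.74-fold lower in replicate 1 and at least 3.1-fold lower in replicate 2.

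In KD1 vs WT, the log2 ratios of A_23_P500421 were −4.64 and −5.61 on the dye-swap pair of replicate 1 and −3.77 and −2.02 on that of replicate 2. EYA2 was therefore lower in KD1 on all 4 arrays, with measured ratios of −5.12 in replicate 1 and −2.89 in replicate 2. The mean was −4.01 ± 1.58 (SD, n = 2), with a 95% interval from limma of −5.92 to −2.10, and rests in replicate 1 on the KD1 extract that has only a bound. With every signal raised to the background limit of its array and channel, the mean was −2.81 (adjusted p = 0.151 from limma). The probe passed the filter through the WT channel, which exceeded the negative controls on 4 of 4 arrays, while the KD1 channel did so on 0. Its unadjusted p was 0.00159 and its adjusted p over all 24860 probes tested was 0.0762 from limma with Benjamini-Hochberg adjustment, which did not pass the threshold of 0.05. The call depended on the fit. The one above pools the spread of all 3 comparisons, so that it includes that of the CON extracts. With the 3 residual degrees of freedom that the fit itself leaves in place of the 2 set, the adjusted p was 0.149. With a dye effect for each slide the adjusted p was 0.0432, with limma on this comparison alone it was 0.00131, and over 10 alternative limma fits, of which 2 made the call, it ranged up to 0.26. That highest value came from normexp and loess, which adds 50 to both channels, where the mean was −0.75. Replicate 2 uses WT extract 2, the one with the EPCAM signal. A_23_P319859 had −2.44 and −1.69 and was not tested, because it exceeded the negative controls on 3 of 4 arrays only.

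In KD1 vs CON, A_23_P500421 had −1.28 and −2.05 in replicate 1 and −3.94 and −2.95 in replicate 2. All 4 arrays were again below 0, but the replicate means of −1.66 and −3.45 differed by 1.78, and the mean was −2.55 ± 1.26 (SD, n = 2). In replicate 1 neither culture was well above background with this probe on these arrays, so that this ratio has no bound. A_23_P319859 had −0.66 and −1.94. Both probes exceeded the negative controls on 2 of 4 arrays, those of replicate 2, and were not tested in this comparison. The control limit, in background-subtracted signal, was 15.9 to 40.6 on the arrays of replicate 1 and 3.49 to 4.19 on those of replicate 2. Without this filter, the adjusted p was 0.292 and 0.349 from limma. With signals raised to the background limit the mean of A_23_P500421 was −1.57, and with normexp and loess the means of both probes were −0.33 and −0.11.

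WT vs CON, which involves no knockdown, gave opposite directions for EYA2 in its 2 replicates. A_23_P500421 was higher in WT in replicate 1, with 3.69 and 3.03, and lower in WT in replicate 2, with −1.09 and −0.80. A_23_P319859 turned in the same way, from 2.20 and 1.40 to −0.90 and −0.31. The mean of 1.21 ± 3.05 (SD, n = 2) for A_23_P500421 was smaller than its spread and had an adjusted p of 0.504 from limma. The replicate values of this probe were 4.31 apart, and 5 of 26566 probes tested in WT vs CON (0.0188%) were at least as far apart, where the median probe differed by 0.35. On some arrays it passed the filter through WT only, which exceeded the negative controls on 4 of 4 arrays, while CON did so on 2. Its replicate 1 ratio rests on CON signals near background, so that its size and this share are limited by them.

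The 3 comparisons of a replicate can be added up, since each extract was measured against both others. For A_23_P500421, KD1 vs WT plus WT vs CON gave −1.76 in replicate 1, where KD1 vs CON was −1.66. In replicate 2 the sum was −3.84 and the measured value was −3.45. Both KD1 comparisons of a replicate were on the same slide, and both replicates of WT vs CON were on a slide of their own.

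With the signals of each extract averaged over its 4 arrays after quantile normalization, EYA2 was 3.69 higher on the log2 scale in CON extract 2 than in CON extract 1 with A_23_P500421, and 2.09 higher with A_23_P319859. Among 26566 probes, 4 (0.0151%) and 63 (0.237%) differed at least as much, in either direction, between the CON extracts. This set holds the probes that passed the negative control filter on every WT vs CON array. On these arrays A_23_P500421 exceeded the controls on 4 of 4 in WT and on 2 of 4 in CON, and A_23_P319859 on 4 and 3. Both thus entered through WT on some arrays. Probes below the controls in both cultures on any of these arrays were left out, so the shares hold only for this set. CON extract 1 was well above background on 1 and 2 of 4 arrays with the EYA2 probes, so that their differences rest in part on signals near background. With signals raised to the background limit they were 3.48 and 1.95, and 3 and 63 probes differed at least as much. Those at or beyond 3.69 in size are A_23_P500421 itself, a pair of HES1 probes and a FAM198B probe. They were named after their values were seen. The FAM198B probe went the other way, by −4.51, from a level of 7.38 in CON extract 1 to 2.87 in CON extract 2. Of its spots in CON extract 2, 0 passed the background limit, so that the size of this difference is limited. HES1, a Notch-responsive repressor, had a level of 7.96 in CON extract 1 and 12.15 in CON extract 2 with A_23_P17998, and 8.20 and 11.41 in the KD1 extracts. In the same values EYA2 differed by 1.74 between extract 2 and extract 1 of KD1, where extract 1 was near background on all 4 arrays, and by −0.67 between those of WT. The 9 probes of the other 6 genes differed between the CON extracts by −0.05 to 0.35.

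**Figure D2:**
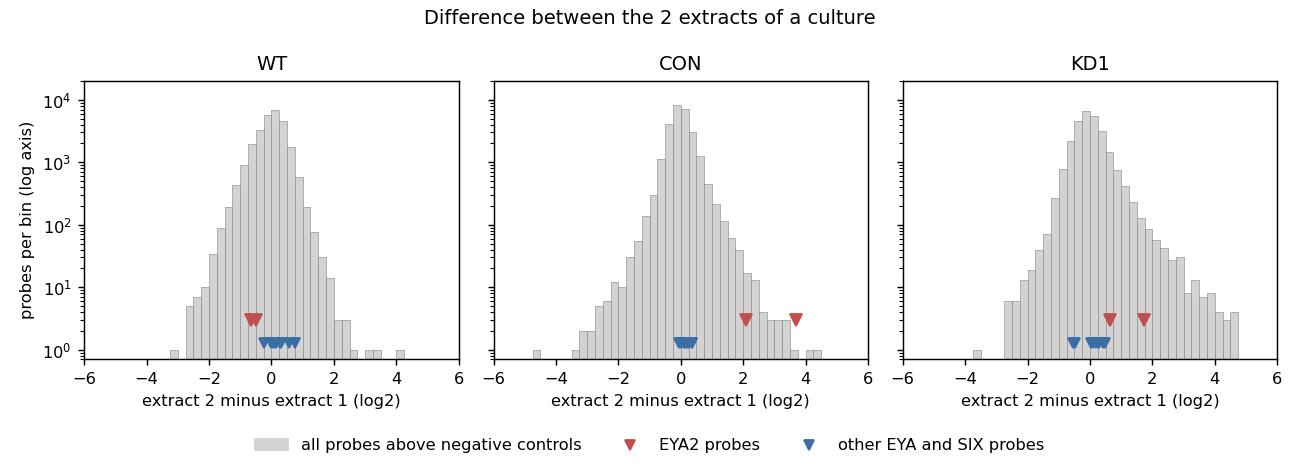
Number of probes (log axis) by the log2 difference between extract 2 and extract 1 of WT, CON and KD1 for probes above the negative controls. The control limit was applied on every WT vs CON array, in either channel. Triangles mark the EYA2 probes and the other EYA-SIX probes. EYA2 lies in the far right tail for CON, at 2.09 and 3.69, while the other probes lie near 0.

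Of the other EYA genes, EYA3 was the one whose ratios were above 0 in both replicates of KD1 vs CON with both of its probes. A_24_P466374 had a signal of 944 to 1335 and 1018 to 1200 in the extracts of CON, 1468 to 1919 and 1597 to 2255 in KD1, and 1452 to 1613 and 1616 to 3129 in WT. The KD1 and WT arrays thus all lay above the CON arrays and overlapped each other. In KD1 vs CON its log2 ratios were 0.64 and 0.51, a mean of 0.57 ± 0.10 (SD, n = 2) with a 95% interval of 0.08 to 1.06, an unadjusted p of 0.0272 and an adjusted p of 0.221 from limma. In WT vs CON they were 0.30 and 0.66 (mean 0.48, adjusted p = 0.325 from limma), and in KD1 vs WT 0.31 and −0.18. The second probe, A_23_P74737, differed from this in WT vs CON. Its replicates were 0.65 and 0.16 (KD1 vs CON), 0.74 and 0.02 (KD1 vs WT) and −0.17 and 0.27 (WT vs CON), and its signals were 90.2 to 135 in CON, 94.4 to 149 in WT and 115 to 199 in KD1, which overlap.

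EYA1, which acts in ear and kidney development and is measured by a single probe of NM_000503, stood well above background on all 8 arrays of each culture. In KD1 vs CON its log2 ratios were −0.17 and −0.54. Those in KD1 vs WT were −0.04 and −0.07 and those in WT vs CON were −0.15 and −0.30. The mean in KD1 vs CON was −0.36 ± 0.26 (SD, n = 2) with a 95% interval of −0.81 to 0.10. The signals of the cultures overlapped, with 638 to 946 in KD1, 716 to 1144 in WT and 725 to 1185 in CON.

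EYA4, in which inherited mutations cause hearing loss, is measured by A_32_P219620 (chr6:133894789-133894848) and A_23_P145507 (chr6:133892056-133892115). The brighter probe, A_32_P219620, had 0.00 and −0.03 for KD1 vs CON, −0.19 and −0.05 for KD1 vs WT and 0.20 and 0.07 for WT vs CON, and its 95% intervals lay between −0.57 and 0.60. For the dimmer probe these were −0.02 and −0.10 (KD1 vs CON) and −0.43 and −0.40 (WT vs CON). In KD1 vs WT, its replicates of −0.32 and 0.92 went in opposite directions, and 1 array with a ratio of 1.50 was the farthest from 0. For this probe the sum of the other comparisons missed the measured KD1 vs CON ratio by 0.73 and −0.62, more than for any other EYA-SIX probe, for which the difference was at most 0.40.

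**Figure D3:**
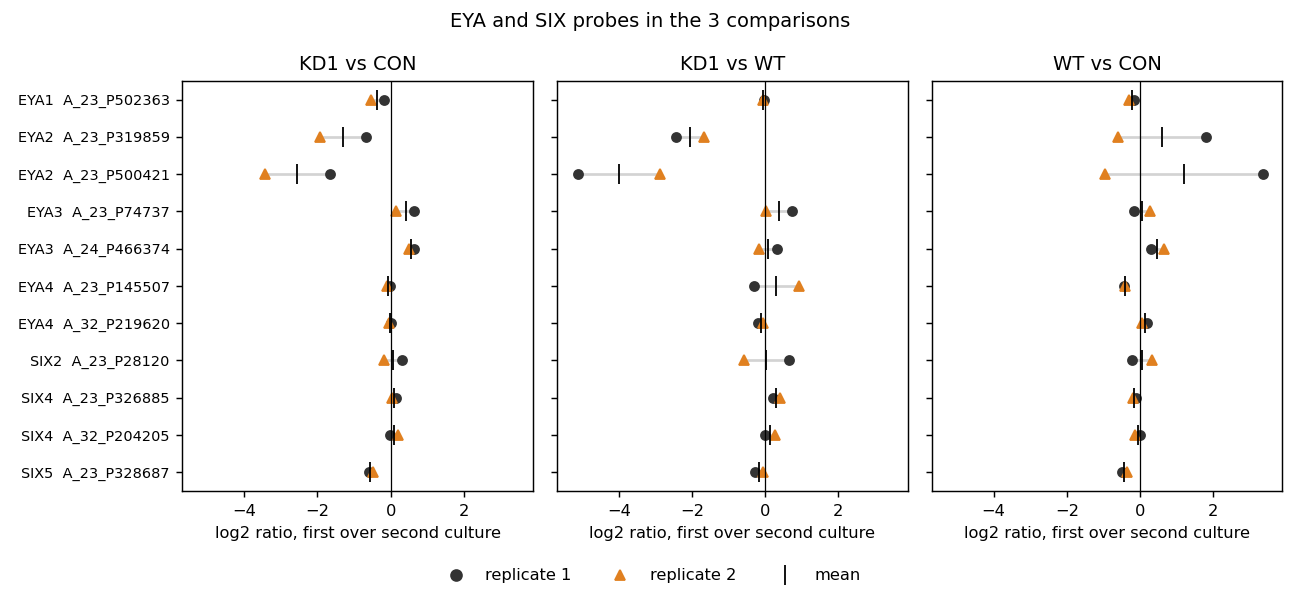
Log2 ratios of the 11 EYA-SIX probes in KD1 vs CON, KD1 vs WT and WT vs CON, with the dye-swap mean of replicate 1 (circles) and replicate 2 (triangles) and the mean of both (bars). The EYA2 probes lie below 0 in both KD1 comparisons and on both sides of 0 in WT vs CON, and every other mean lies between −0.55 and 0.57.

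Among the homeobox genes, SIX5 had the lowest ratios. SIX5 lies next to DMPK, the gene of myotonic dystrophy type 1, and its probe A_23_P328687 is at chr19:50960752-50960811 on the minus strand. Its signals were 49.8 to 95.8 in KD1, 68.4 to 109 in WT and 93.7 to 125 in CON. The KD1 arrays overlapped the lowest CON arrays only in extract 2. The log2 ratios were −0.60 and −0.49 in KD1 vs CON, with a mean of −0.55 ± 0.08 (SD, n = 2), a 95% interval of −0.99 to −0.10, an unadjusted p of 0.0226 and an adjusted p of 0.206 from limma. They were −0.49 and −0.36 in WT vs CON (adjusted p = 0.337 from limma) and −0.27 and −0.06 in KD1 vs WT. The order of the cultures for SIX5 was therefore CON, WT and KD1, and no pair of neighbours in it passed the adjusted threshold. DMPK, given here for its position, had ratios of −0.40 and −0.68 to CON in KD1, and of −0.19 and −0.20 in WT.

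SIX2, a factor that maintains nephron progenitors in the kidney, went in opposite directions in the replicates of all 3 comparisons. Its probe A_23_P28120 (chr2:45086766-45086825) gave 0.31 and −0.17 (KD1 vs CON), 0.65 and −0.59 (KD1 vs WT) and −0.23 and 0.34 (WT vs CON). The signals were 810 to 974 and 1125 to 1758 in the extracts of WT, 932 to 1175 and 912 to 978 in CON and 1142 to 1449 and 855 to 1166 in KD1. WT was thus brighter in extract 2 and KD1 in extract 1, and the means of 0.07, 0.03 and 0.06 were within the spread.

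SIX4, a factor that acts in myogenesis, had mean ratios near 0 with both of its probes. A_32_P204205 (chr14:60246272-60246331), the brighter one, had −0.02 and 0.19 (KD1 vs CON), −0.00 and 0.28 (KD1 vs WT) and 0.01 and −0.13 (WT vs CON), with 95% intervals between −0.54 and 0.61. A_23_P326885 (chr14:60250190-60250249) had 0.14 and 0.04, 0.21 and 0.39, and −0.10 and −0.20 in the same order, and its KD1 vs WT ratio was above 0 on all 4 arrays.

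None of the EYA-SIX probes passed the adjusted threshold of limma in any comparison. In KD1 vs CON, 9 of the 11 probes could be tested and 0 were called, where 1.81% of all probes tested were called, and 2 had an unadjusted p under 0.05 where 17.2% of all probes did. In KD1 vs WT, 10 were tested and 0 called, where 1.09% of all probes were called, and 1 had an unadjusted p under 0.05 where 17.2% of all probes did. In WT vs CON, 11 were tested and 0 called, where 1.42% of all probes were called, and 0 had an unadjusted p under 0.05 where 16.5% of all probes did. A_23_P500421 entered the KD1 vs WT count through its WT channel only. Other limma fits called 0 or 1 of them, and the 1 was A_23_P500421 of EYA2 in KD1 vs WT. In those fits 0 to 4 had an unadjusted p under 0.05. With counts this small, the shares of the EYA-SIX probes cannot be set apart from those of all probes. Their median log2 ratios were 0.07, 0.05 and 0.05 in these comparisons, beside −0.01, 0.01 and −0.03 over all probes tested. In replicate 1 alone, without WT extract 2, their medians were −0.02 (KD1 vs WT) and −0.10 (WT vs CON). Apart from EYA2, the 95% intervals of the other 9 probes lay between −1.05 and 1.06, and 25 of the 27 intervals, 3 for each probe, excluded a 2-fold difference in either direction.

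The selection criteria of the study were also applied. They ask for a mean change of at least 2-fold in both KD1 comparisons, a signal above the negative controls in 1 channel or more, and one direction on all 8 arrays. The number of arrays that must pass the signal criterion is not stated. With the signal required on at least 1 array of each comparison, 2 EYA-SIX probes were selected for KD1, both of EYA2 and both lower in KD1, where 1.7% of all probes that passed the signal criterion were selected. With the signal required on every array, 0 were selected, where 1.38% of all probes were, since both EYA2 probes fell below the negative controls in KD1 and the other culture on some arrays. With CON or WT in the place of KD1, 0 EYA-SIX probes were selected under the former reading, where 1.55% and 1.35% of all probes were, and 0 under the latter, where 1.25% and 1.18% were.

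The named transcripts within 1 Mb of the brighter EYA2 probe were compared next. There were 18, of which 8 could be tested, and 1.81%, 1.09% and 1.42% of all probes were called in KD1 vs CON, KD1 vs WT and WT vs CON. SULF2, an extracellular heparan sulfate sulfatase 469.1 kb from EYA2, had −2.59 and −5.26 in KD1 vs CON (adjusted p = 0.0346 from limma), −3.40 and −3.02 in KD1 vs WT (adjusted p = 0.0798 from limma) and 0.84 and −2.32 in WT vs CON. Other limma fits called it in 4 of 11 cases in KD1 vs CON, with an adjusted p of 0.0161 to 0.215, and in 2 of 11 in KD1 vs WT. Like EYA2, it was higher in WT than in CON in replicate 1 and lower in replicate 2. SLC2A10, a glucose transporter 453.5 kb on the other side of EYA2, had −1.29 and −1.89 in KD1 vs CON (adjusted p = 0.0352 from limma). It was lower in KD1 than in WT as well, by −2.19 and −1.42 (adjusted p = 0.0338 from limma). Of 11 other limma fits, 6 called it against CON and 6 against WT, and its adjusted p reached 0.371 and 0.192. In WT vs CON it had 0.60 and −0.20. ZMYND8, a chromatin reader and the nearest gene with a symbol at 32.1 kb, had −0.03 and 0.08 (KD1 vs CON), −0.12 and 0.04 (KD1 vs WT) and 0.15 and −0.06 (WT vs CON). Besides SULF2 and SLC2A10, the other 6 transcripts tested had KD1 vs CON means of −0.14 to 0.30 and KD1 vs WT means of −0.14 to 0.44, and in replicate 1 their KD1 vs WT ratios were −0.33 to 0.67.

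**Figure D4:**
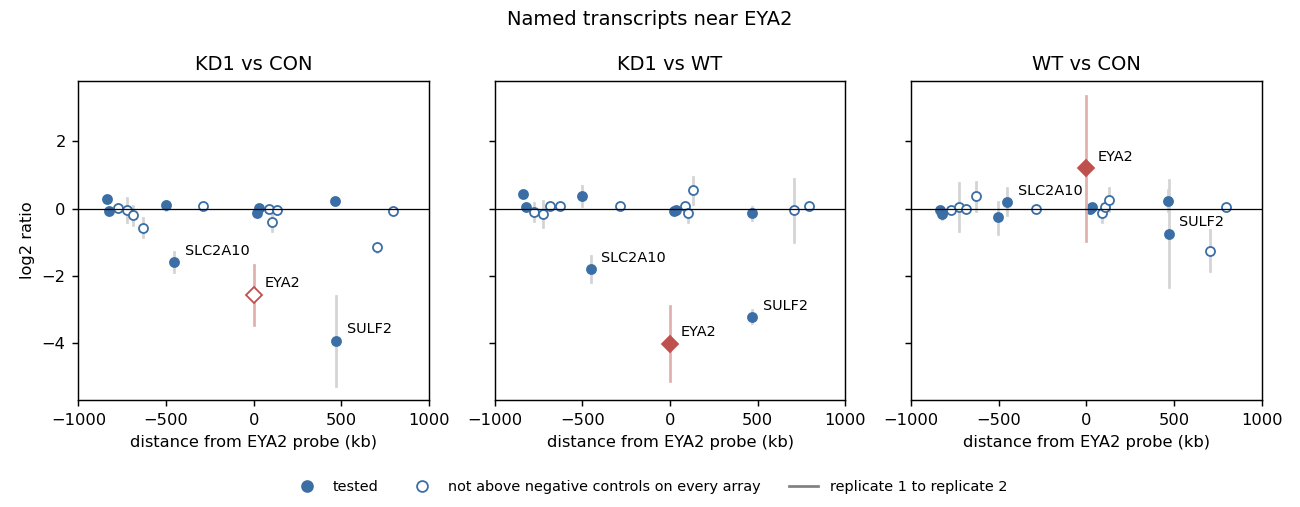
Mean log2 ratios of 18 named transcripts and of EYA2 (diamond) against the distance of their probes from the EYA2 probe in kb, in the 3 comparisons. Filled symbols were tested, open symbols missed the negative control limit on at least 1 array, and vertical lines join replicate 1 and replicate 2. SLC2A10, EYA2 and SULF2 lie below 0 in both KD1 comparisons, and ZMYND8 near EYA2 lies at 0.03 and −0.04.

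The genes most like EYA2 over the 6 replicate ratios were SEPP1, CDH6, CNR1, SYTL4 and AGPAT9, with Euclidean distances of 2.56, 2.73, 3.04, 3.23 and 3.31 among 20907 probes with a gene name that could be tested in KD1 vs WT and WT vs CON. Their Pearson correlations with EYA2 were 0.974, 0.932, 0.888, 0.906 and 0.900 over 6 values that share 6 extracts. SEPP1, a plasma selenoprotein, had −2.45 and −3.23 for KD1 vs CON, −6.16 and −3.62 for KD1 vs WT and 4.47 and 0.80 for WT vs CON, and 0 of its 8 KD1 spots were well above background. CDH6, a cadherin of kidney and neural crest, had −4.87 and −3.06 in KD1 vs WT, and CNR1, the cannabinoid receptor of the brain, had −4.77 and −3.32. Since the genes were chosen on these 6 ratios, their correlations and the directions they share with EYA2 follow from the choice. They did not share its direction in replicate 2 of WT vs CON, where their ratios were 0.03 to 1.29 and that of EYA2 was −0.95.

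**Figure D5:**
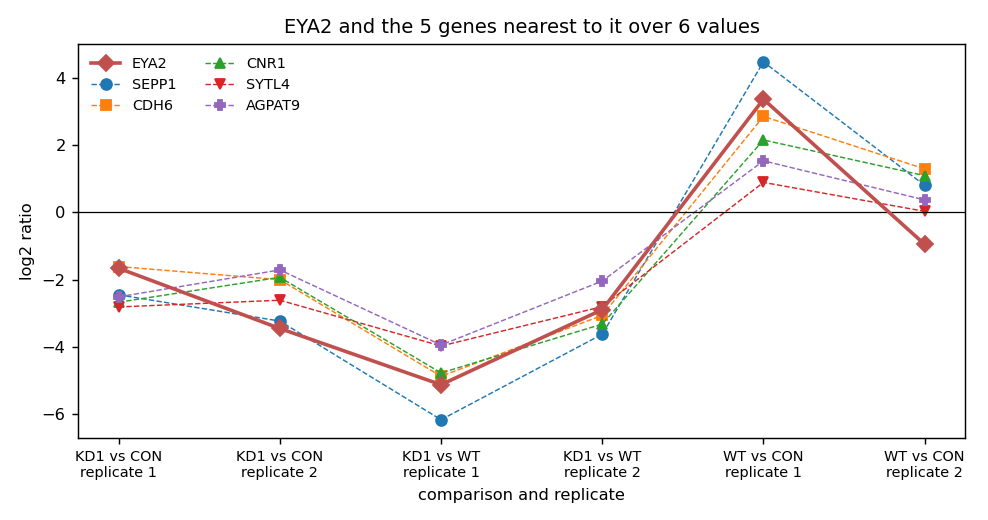
Log2 ratios of EYA2 (A_23_P500421) and of the 5 genes with the smallest distance to it, for each comparison and replicate. Lines only join the values of a gene. EYA2 alone among the 6 genes lies below 0 in replicate 2 of WT vs CON.

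Partners and targets of the network were described with lists written from general knowledge. Of 9 partners, DACH1, DACH2 and MEOX2 were well above background in 0 of 24 channels. In each KD1 comparison, 4 of the 9 were tested, with 0 called and medians of −0.12 (KD1 vs CON) and −0.35 (KD1 vs WT, −0.29 in replicate 1), and in WT vs CON 6 were tested and 0 called. Over all probes tested, 1.81% (KD1 vs CON), 1.09% (KD1 vs WT) and 1.42% (WT vs CON) were called, and with lists this short 0 or 1 called gene cannot be set apart from these shares. Of 17 reported targets of the EYA-SIX factors, the test covered 13 (KD1 vs CON), 14 (KD1 vs WT) and 16 (WT vs CON), and in this order their medians were −0.12, 0.04 and −0.17. In replicate 1 the medians were −0.04 (KD1 vs WT) and 0.09 (WT vs CON). CCNA1, the germ-line cyclin A, was the 1 target called higher in KD1, with 1.78 in both replicates of KD1 vs CON (adjusted p = 0.00601 from limma) and 1.34 and 1.47 in KD1 vs WT (adjusted p = 0.0257 from limma). Other limma fits called it in 10 and 7 of 11 cases. MYOG, which drives terminal muscle differentiation, was the 1 target called lower in WT than in CON, with −1.96 and −1.49 (adjusted p = 0.0183 from limma, called in 8 of 11 other fits). It had −1.35 and −0.92 in KD1 vs CON (adjusted p = 0.0505 from limma, called in 1 of 11 other fits). In KD1 vs WT it went the other way, with 0.74 and 0.46 (adjusted p = 0.226 from limma). Of 7 partners of EYA in the DNA damage response and in signaling, 6 were tested in each comparison and 0 were called.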

How the data were processed

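The 12 arrays were scanned and extracted by the authors with Agilent Feature Extraction 10.5.1.1. Per the file headers, the deposited intensity values are background-subtracted, detrended and lowess-normalized within each array, with a surrogate value for spots at background. The authors also deposited a log10 ratio of these intensities, and in the series table the same ratio on the log2 scale, used here as an alternative. The unmatched sample columns of that table numbered 0. Positions are those of the files, on NCBI36.

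Log2 ratios were computed from the processed intensities, as means of repeated spots and of each dye-swap pair. Testing required, on each array of a comparison, a background-subtracted signal in Cy3 or Cy5 beyond the 99th percentile of its 153 negative controls. R 4.3.3 with limma 3.58.1 was used to fit (lmFit, eBayes) 6 replicate values with a coefficient per comparison, with Benjamini-Hochberg adjustment over all probes tested and a threshold of 0.05. The residual degrees of freedom were put at 2 by hand for the shared extracts, whereas 6 values less 3 coefficients leave 3, and the fit with 3 is an alternative. The fit was tested on simulated data. WT vs CON was on one slide and each KD1 replicate on another, so that slide and replicate cannot be told apart in the KD1 comparisons.

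The text names every EYA-SIX probe, the 5 genes nearest to EYA2, its neighbours within 1 Mb, the fusion partners and the listed genes past the threshold. Of a gene with several probes, the brightest was taken, except that ratios of the EYA-SIX genes and fusion partners are given for every probe. Members and lists were chosen with earlier results of these data known. Python 3.11.15 with numpy 2.4.6, pandas 2.3.3 and matplotlib 3.10.9 was used. Other members of these families were not used here.

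Tried as alternatives were normexp (offset 50) with loess, median centring, the series table, no filter or a well-above-background filter, separate channels per extract, an extract fit with a replicate block, each comparison alone, a dye effect per slide, the mean over all probes of a gene, a 2-fold change on every array and each replicate left out. Chosen after seeing the data were the test of single probes without the signal filter, the 3 residual degrees of freedom, signals raised to the lowest one well above background, and the signal criterion on at least 1 array.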

Additional observations from a re-analysis of the deposited data

How the results depend on the processing

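Over all probes tested, 396 (KD1 vs CON), 272 (KD1 vs WT) and 377 (WT vs CON) were called. The other limma fits called 26 to 1006, 1 to 1019 and 2 to 1092, the lowest with normexp and loess and the highest with a dye effect per slide, and 381, 154 and 233 with 3 residual degrees of freedom. Both EYA2 probes failed the negative control filter in KD1 vs CON. Of the fits read probe by probe, only the one without this filter gave them an adjusted p there. It was 0.292 for A_23_P500421 and 0.349 for A_23_P319859 from limma, and the other such fits could not call them. Within this limit, the number of EYA-SIX probes called was 0 in KD1 vs CON and in WT vs CON under all alternatives run. In KD1 vs WT it was 1 in place of 0 with each comparison alone and with a dye effect per slide, through EYA2 A_23_P500421 at −4.01 (adjusted p = 0.00131 and 0.0432 from limma). Normexp with an offset of 50 in both channels and loess gave this probe −0.33 in KD1 vs CON, and its KD1 vs WT value was −0.75. In the extract fit with the replicate block it had −3.93 in KD1 vs WT (adjusted p = 0.151 from limma). That fit called 0 EYA-SIX probes in each comparison, where it called 161 (KD1 vs CON), 111 (KD1 vs WT) and 131 (WT vs CON) of all probes tested. Same-numbered extracts share arrays, and their deviations correlated across probes by 0.535 between KD1 and CON, −0.033 between KD1 and WT and 0.004 between CON and WT. With 1 replicate left out, A_23_P500421 ranged from −3.45 to −1.66 in KD1 vs CON, from −5.12 to −2.89 in KD1 vs WT and from −0.95 to 3.36 in WT vs CON. The selection criteria found 2 probes without the signal filter, 2 with the signal on at least 1 array of each comparison, and 0 to 1 with a replicate left out, the 1 without replicate 1. Over all probes they selected 302, and 96 to 1073 under the alternatives. Directions turned for EYA3 A_23_P74737 in WT vs CON (−0.02 without the replicate block, with separate channels) and for SIX2 in KD1 vs CON (−0.0032 with normexp and loess). With the mean over both of its probes, EYA4 had 0.09 in place of −0.12 in KD1 vs WT and −0.14 in place of 0.14 in WT vs CON. With 1 replicate left out, 12 ratios changed sign, of which 2 were of EYA2. The cause of these changes was not tested. The slide fit gave no value for EYA2 in KD1 vs CON, as its probes were not above the negative controls there. Signals of EYA2 near background limit the size of its ratios in KD1 and in CON extract 1.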
